A study of Homo sapiens with 18 samples.

Results

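The 10 genes described here encode the cyclins, kinases and activators that take a human cell through mitosis: CCNA2, CCNB1, CCNB2, CDK1, PLK1, AURKA, AURKB, BUB1, BUB1B and CDC20. They were chosen by name, with earlier results of these data known, and all 10 were among the 61267 genes of the RNA-seq count table. The study used LoVo, a human colorectal cancer cell line, with the m6A methyltransferase METTL3 either wild type (METTL3 WT) or carrying the K513R substitution (METTL3 K513R). K513R replaces a lysine by an arginine, and the series asks what methylation of METTL3 at that lysine does. The cells were of these 2 genotypes only, with no further treatment or time point in the labels, and the labels do not say how the K513R cells were made or whether they are 1 clone. Each genotype had 3 RNA-seq libraries of rRNA-depleted total RNA, and 3 pairs of input and m6A immunoprecipitate (IP) libraries of fragmented poly(A) RNA (MeRIP-seq). Of the 39708 deposited m6A peaks, 15 overlapped an exon of 6 of the genes on the same strand, and CCNB1, PLK1, AURKB and CDC20 had 0.

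Entry into mitosis is driven by CDK1, a kinase that is active only when bound to a cyclin, first cyclin A2 and then the B cyclins. PLK1 and the Aurora kinases build the spindle and ready the chromosomes, BUB1 and BUBR1 (the product of BUB1B) hold the spindle assembly checkpoint until every kinetochore is attached, and CDC20 then turns on the anaphase-promoting complex (APC/C), the ubiquitin ligase that destroys cyclin B and securin. Transcription of these genes peaks in G2 and mitosis under the MuvB complex with MYBL2 and FOXM1, which reaches promoters through the cell cycle genes homology region (CHR), often beside CCAAT boxes bound by NF-Y. m6A is a methyl mark on adenosines of mRNA, written by METTL3 with METTL14, and it often lies near the stop codon and in long exons.

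RefSeq promoter windows (GRCh38.p14, 250 bases before to 50 after a transcription start) were found for 9 of the 10 genes, and AURKA had none in the table used. Stretches of 5 genes just before the transcribed part are shown. Those of CCNB1, CCNB2 and CDC20 hold both motifs that many of the genes share. Those of BUB1 and CCNA2 hold the CCAAT box but neither of the CHR core forms searched, TTTGAA and TTTAAA. Capitals mark the CCAAT box (CCAAT, or ATTGG where it lies on the opposite strand) and the CHR core (TTTGAA or TTTAAA). They are CCNB1 at chr5:69167000-69167134 on the plus strand, CCNB2 at chr15:59104996-59105125 on the plus strand, CDC20 at chr1:43358831-43358980 on the plus strand, BUB1 at chr2:110678064-110678213 on the minus strand and CCNA2 at chr4:121823884-121824033 on the minus strand.
CCNB1: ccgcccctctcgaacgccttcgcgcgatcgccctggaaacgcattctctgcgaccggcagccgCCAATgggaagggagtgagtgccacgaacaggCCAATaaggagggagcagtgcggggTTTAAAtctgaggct
CCNB2: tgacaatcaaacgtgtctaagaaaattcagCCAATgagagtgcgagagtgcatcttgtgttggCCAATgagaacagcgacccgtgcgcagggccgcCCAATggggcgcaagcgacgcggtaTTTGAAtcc
CDC20: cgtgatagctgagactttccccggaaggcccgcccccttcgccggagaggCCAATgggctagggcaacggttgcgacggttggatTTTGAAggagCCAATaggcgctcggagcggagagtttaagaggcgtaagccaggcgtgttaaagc
BUB1: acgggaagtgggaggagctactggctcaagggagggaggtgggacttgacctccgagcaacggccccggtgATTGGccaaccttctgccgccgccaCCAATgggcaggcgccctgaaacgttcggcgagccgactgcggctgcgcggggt
CCNA2: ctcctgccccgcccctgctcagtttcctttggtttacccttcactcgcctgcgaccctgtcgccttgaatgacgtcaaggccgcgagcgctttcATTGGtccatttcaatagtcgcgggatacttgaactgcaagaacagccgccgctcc

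The CHR core letters, searched on both strands, occurred in the windows of 6 of the 9 genes (CCNB1, CCNB2, CDK1, PLK1, BUB1B and CDC20), against 24.0% of the 35116 windows in the whole table. CCAAT, also searched on both strands, occurred in 8 of the 9, all but BUB1B, against 34.6% of all windows. At least 2 CCAAT were found in 5 genes, against 10.8% of all windows, and both motifs in 5 genes, against 9.27%. The motifs share no letters that overlap in the printed stretches. In CCNB1 the first base of TTTAAA lay at position -30 from the start, with CCAAT at -87 and -55. CCNB2 had the most CCAAT boxes, 4, at -244, -120, -87 and -54, with TTTGAA at -29, and 3.26% of all windows held at least 3. PLK1 and BUB1B also carried TTTGAA near the start, at -29 and -23, as did the second CDK1 start, at -13. BUB1, CCNA2 and AURKB held CCAAT but neither TTTGAA nor TTTAAA in these windows, which says only that those letters are not there. Other forms of the CHR were not searched for. A match of letters is a description of the sequence and not a mapped site.

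Total counts per RNA-seq library in the gene table were 47105235 to 51886164 in METTL3 WT and 47451837 to 53795212 in METTL3 K513R. Counts in peaks were lower in K513R than in WT, at 5905811 to 9198650 against 11076729 to 12491969 in the IPs and 2625446 to 4847236 against 5025027 to 6200264 in the inputs. The RNA-seq libraries of the genotypes also differed in makeup. Genes with a 7SL RNA symbol held 1.78% to 2.81% of gene counts in WT and 17.5% to 18.8% in K513R, while mitochondrially encoded genes held 3.38% to 4.82% and 0.237% to 0.353%. Of 30377 genes tested, 78.3% differed at an adjusted p under 0.05, 41.5% higher and 36.9% lower in K513R, and the median log2 fold change was 0.13. Summed markers of colorectal epithelium ran from 10655 to 15410 CPM (counts per 1000000 counts in genes) in WT and from 2486 to 2679 in K513R. KRT8, KRT18 and KRT19 made up most of that sum, at mean levels of 8821, 2382 and 1321 CPM in WT and 1915, 202 and 103 in K513R. Of the 9 markers tested, 6 were lower (EPCAM, KRT8, KRT18, KRT19, VIL1 and CDX2), CDH1 and LGALS4 were higher and KRT20 did not pass. LGALS4 was near 0 in both genotypes, at 0.02 CPM in WT and 0.61 in K513R. CEACAM6 had 0 counts in WT. Summed markers of immune, stromal and endothelial cells were low, at up to 62.8 CPM in WT and 96.2 to 98.9 in K513R, with 10 of 12 higher, COL3A1 lower (a call lost with upper-quartile factors, with a mean of at least 1 CPM, without 7SL, 7SK and mitochondrial genes, and without K513R replicate 1), PTPRC not past the threshold and none at 0. The part of these differences in the results below was not tested. In bulk RNA, fewer cells in G2 and mitosis and less RNA of these genes per cell cannot be told apart.

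All 10 genes were lower in METTL3 K513R in total RNA, against 36.9% of all genes tested, and all 10 fell by at least 1 on the log2 scale, against 25.7%. CDC20 only just reached that size, at -1.01, and ranged from -1.14 to -0.74 over the alternatives run. Every K513R library lay below every WT library for all 10, against 37.8% of genes. Their median log2 fold change was -1.98. The falls formed a graded order, from 6.35 times for CCNB1 to 2.01 times for CDC20. CCNB1, PLK1, BUB1B, CCNB2 and CCNA2 fell 5.11 to 6.35 times, BUB1, CDK1, AURKA and AURKB 2.77 to 3.06 times, and CDC20 least. All adjusted p-values here come from edgeR's quasi-likelihood test with Benjamini-Hochberg adjustment over all genes tested, and values are CPM with TMM factors.

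**Figure D1:**
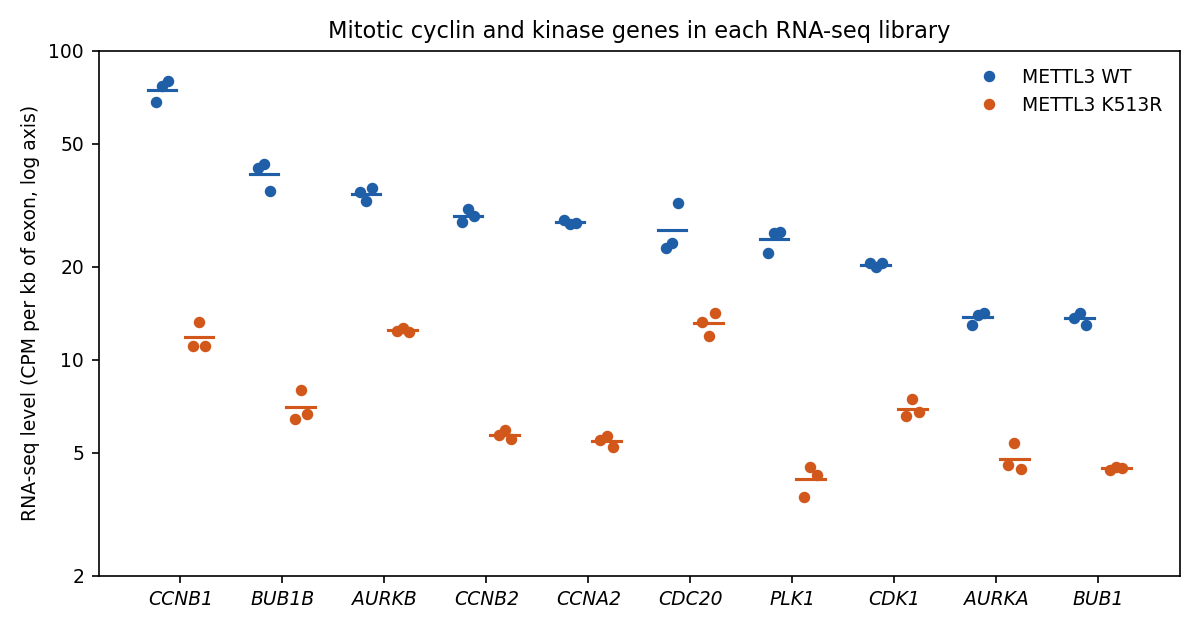
RNA-seq level of each gene in CPM per kilobase of exon, on a log axis, in 3 METTL3 WT and 3 METTL3 K513R libraries, with points for libraries and bars for means. For every gene the K513R points lie below all WT points, with the widest gap for CCNB1 and the narrowest for CDC20.

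Among the cyclins, CCNB1 (chr5:69167135-69178245, plus strand, 9 merged exons), the main partner of CDK1 at mitotic entry, stood at 166, 187 and 194 CPM in the WT libraries and at 27.0, 32.3 and 26.9 in the K513R libraries. The groups were far apart, and the fall was 2.67 on the log2 scale (SE 0.12, adjusted p = 1.65e-12). CCNB2 (chr15:59105126-59125045, plus strand, 7 merged exons), the second B cyclin, had 76.9, 84.6 and 80.2 CPM in WT and 15.7, 16.3 and 15.2 in K513R. Its libraries spread little within a genotype, and it fell by 2.36 (SE 0.10, adjusted p = 1.67e-12). CCNA2 (chr4:121816444-121823883, minus strand, 8 merged exons), the cyclin of S phase and early mitosis, had 78.0, 75.8 and 76.2 CPM in WT and 15.1, 15.5 and 14.4 in K513R, a fall of 2.35 (SE 0.10, adjusted p = 1.49e-12). Of its exonic length, 9.24% is shared with EXOSC9 on the opposite strand, and the gene counts did not separate strands. CDK1 (chr10:60778331-60794852, plus strand, 9 merged exons), the kinase that these cyclins activate, had 80.1, 77.8 and 80.4 CPM in WT and 25.7, 29.1 and 26.4 in K513R. It fell by 1.55 (SE 0.10, adjusted p = 2.26e-10), less than its 3 cyclins by these estimates.

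The ratio of the B cyclin to its kinase was lower in K513R. Per kilobase of exon, CCNB1 RNA was 3.33 to 3.87 times that of CDK1 in the WT libraries and 1.64 to 1.78 times in the K513R libraries, with no overlap. CCNB1 was 2.44 to 2.74 times CCNB2 in WT and 1.95 to 2.25 times in K513R, also without overlap but closer. These ratios restate the unequal falls and were not tested. The share of all gene pairs whose ratios do not overlap was not computed, here or for the pairs below.

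Of the kinases that act on the spindle, PLK1 (chr16:23677656-23690367, plus strand, 9 merged exons), which promotes mitotic entry, centrosome maturation and exit, fell most. It had 105, 122 and 124 CPM in WT and 17.1, 21.4 and 20.2 in K513R, a fall of 2.58 (SE 0.12, adjusted p = 2.78e-12). Genes on the opposite strand share 12.8% of its exonic length. AURKA (chr20:56369389-56392337, minus strand, 11 merged exons), the Aurora kinase of the centrosomes and spindle poles, had 38.1, 40.9 and 41.3 CPM in WT and 13.3, 15.7 and 13.0 in K513R. AURKB (chr17:8204733-8210600, minus strand, 8 merged exons), the kinase of the chromosomal passenger complex, had 78.2, 73.1 and 80.5 CPM in WT and 27.8, 28.3 and 27.6 in K513R. The Aurora pair had close estimates: AURKA fell by 1.52 (SE 0.11, adjusted p = 8.28e-10) and AURKB fell by 1.47 (SE 0.10, adjusted p = 3.71e-10). Their ratio per kilobase overlapped between genotypes, with AURKB 2.33 to 2.68 times AURKA in WT and 2.36 to 2.77 times in K513R.

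The estimates of the paired checkpoint genes differed. BUB1B (chr15:40161023-40221123, plus strand, 24 merged exons), which encodes the CDC20-binding checkpoint protein BUBR1, had 187, 192 and 156 CPM in WT and 28.8, 35.5 and 29.8 in K513R, a fall of 2.51 (SE 0.12, adjusted p = 5.13e-12). It shares 10.2% of its exonic length with PAK6 and the read-through gene BUB1B-PAK6 on the same strand, so its counts are less certain there. BUB1 (chr2:110637528-110678063, minus strand, 29 merged exons), the kinetochore kinase that recruits BUBR1, had 85.8, 89.4 and 82.0 CPM in WT and 27.7, 28.4 and 28.1 in K513R, a fall of 1.61 (SE 0.10, adjusted p = 1.09e-10). BUB1B was 2.69 to 3.07 times BUB1 per kilobase in WT and 1.47 to 1.77 times in K513R, and the libraries of the genotypes did not overlap.

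CDC20 (chr1:43358981-43363203, plus strand, 10 merged exons), the APC/C activator that the checkpoint restrains, had 46.1, 48.1 and 64.9 CPM in WT and 26.6, 24.0 and 28.5 in K513R. The third WT library was the highest, and the groups still did not overlap. CDC20 fell by 1.01 (SE 0.13, adjusted p = 1.34e-06), or 0.74 with upper-quartile factors, which also moved the median of all genes from 0.13 to 0.39.

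Because the falls were unequal, the order of the levels per kilobase changed. In WT, CCNB1 led at 74.9 ± 5.998 CPM per kilobase (SD, n = 3), above BUB1B at 39.9 ± 4.28 without overlap, followed by AURKB, CCNB2, CCNA2, CDC20, PLK1, CDK1, AURKA at 13.7 ± 0.608 and BUB1 at 13.6 ± 0.594. Neighbouring genes overlapped between BUB1B and AURKB, along the run from CCNB2 through CCNA2 and CDC20 to PLK1, and between AURKA and BUB1. In K513R, CDC20 at 13.1 ± 1.12, AURKB at 12.5 ± 0.169 and CCNB1 at 11.8 ± 1.26 formed the top (SD, n = 3), each overlapping the next. Below a gap came BUB1B at 7.02 ± 0.810 and CDK1 at 6.92 ± 0.467, and below another CCNB2, CCNA2, AURKA, BUB1 and last PLK1 at 4.11 ± 0.473. CDC20 moved from the sixth place to the first and PLK1 from the seventh to the last, although in both orders their libraries overlapped those of a neighbour. Levels per kilobase, here and in the ratios above, divide by all merged exons of a gene, whether or not these cells use each. Ranks and ratios between genes depend on that length.

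The MeRIP inputs give a separate reading of the same genes in poly(A) RNA, as counts over peaks, summed per gene. In them 4 of the 10 genes could be tested, and 2 were lower (BUB1 and BUB1B), 2 did not pass (CCNA2 and AURKA) and 0 were higher, against 13.4% lower and 13.6% higher among all 8605 genes tested (27.0% in either direction). The median over the 4 was -0.44, against 0.01 for all genes. With library sizes in place of TMM factors the split of all genes moved from 1167 higher and 1157 lower to 1665 higher and 755 lower. Several of the summed spans lie mostly in introns, and the sources do not state whether reads were counted over whole spans or over exonic blocks only, so what the input values cover is uncertain there. Exons made up 5.94% of the span on BUB1B that was summed, 8.22% of the longer AURKA span, 36.4% on CCNA2, and 29.8% and 41.9% of the larger spans on BUB1. CCNB2 and CDK1 had too few input counts for a test, 4 and 8 over all WT inputs and 0 and 1 over all K513R inputs.

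BUB1 input levels were 47.5, 45.2 and 38.1 CPM in WT and 31.1, 21.4 and 28.3 in K513R. The groups did not overlap, and the fall was 0.68 on the log2 scale (SE 0.17, adjusted p = 0.00697). BUB1B had 63.0, 64.1 and 58.5 CPM in WT and 43.0, 39.1 and 41.4 in K513R, again without overlap, and fell by 0.58 (SE 0.13, adjusted p = 0.00324). Every K513R input lay below every WT input for 21.0% of the 8605 genes tested. CCNA2 had 44.3, 37.8 and 40.3 CPM in WT and 31.7, 42.7 and 48.5 in K513R, where the groups overlapped fully (log2 fold change -0.02, SE 0.16, adjusted p = 0.940). AURKA had 104, 91.0 and 89.0 CPM in WT and 68.2, 70.0 and 94.4 in K513R. The third K513R library lay among the WT libraries, and the difference of -0.30 (SE 0.13) did not pass (adjusted p = 0.115); without that library it was -0.45 (adjusted p = 0.0148).

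The genotype difference was smaller in the inputs than in RNA-seq for each of these 4 genes, of 6 in the model, by the assay-by-genotype term of a joint edgeR model. Among 11480 genes in that model the term passed for 53.1%, and 28.0% had an input change above the RNA-seq change and 25.0% one below it. The term was largest for CCNA2, 1.94 on the log2 scale (SE 0.19, adjusted p = 4.09e-09), where a fall of 5.11 times in total RNA stood beside overlapping input levels. All CCNA2 input counts came from a single peak, listed from K513R only. That peak covers 122 of the 2748 exonic bases of the gene. The term was 1.54 for BUB1B (SE 0.18, adjusted p = 8.11e-08) and 0.83 for AURKA (SE 0.18, adjusted p = 0.000366). For BUB1 it was 0.55 (SE 0.19, adjusted p = 0.0176), and this call was lost without K513R replicate 1 (0.38, adjusted p = 0.161) or K513R replicate 3 (0.53, adjusted p = 0.0542) of both assays. CCNB2 and CDK1, with 0 and 1 input counts in K513R, were also in the model and had terms in the other direction that did not pass (-3.74, SE 2.93, adjusted p = 0.349, and -1.21, SE 1.18, adjusted p = 0.450). The joint model scales each assay over genes with a peak only, so the term is not exactly the difference of the separate fits. RNA selection, the region counted and the libraries all differ between the assays, and their parts cannot be told apart.

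**Figure D2:**
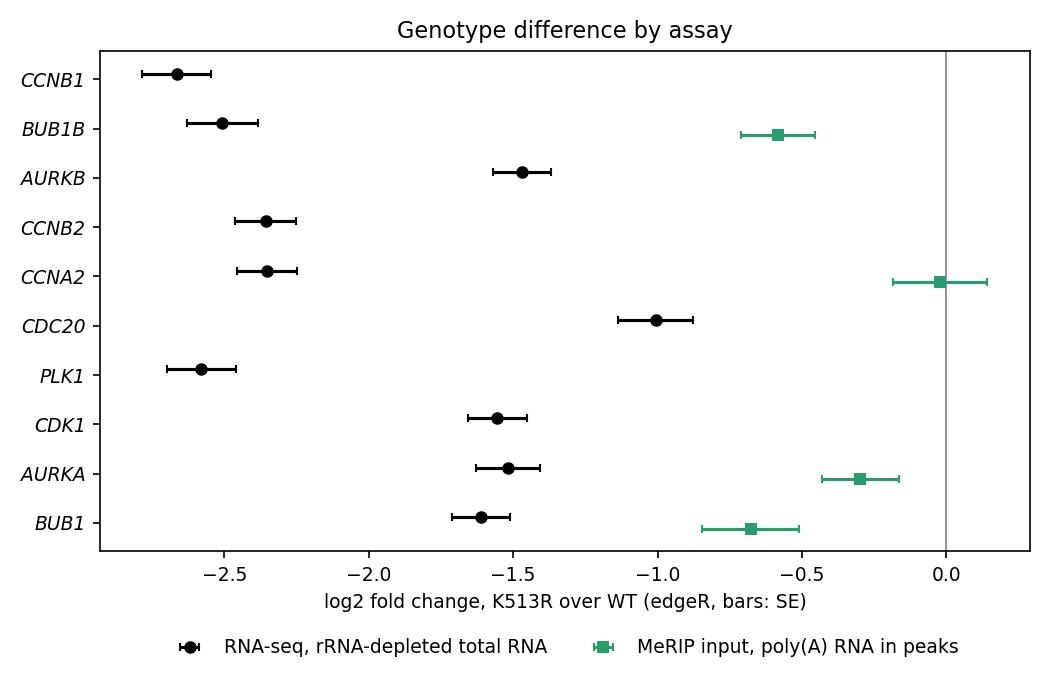
log2 fold change of K513R over WT with the SE of the edgeR fit, in RNA-seq (circles, all 10 genes) and in the MeRIP inputs (squares, the 4 genes tested). The input points of CCNA2, BUB1B, AURKA and BUB1 all lie nearer to 0 than their RNA-seq points, with CCNA2 at -0.02 against -2.35.

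The m6A signal on these genes was tested as the change in IP over input between genotypes, per peak. Of the 15 peaks, 10 had enough counts, and 2 of these were higher in K513R and 0 lower, against 13.0% higher and 9.61% lower among all 27252 peaks tested (22.6% in either direction). With library sizes in place of TMM factors the split of all peaks was 1813 higher and 3928 lower. The peaks were called separately in each genotype, so several are the same region listed again: AURKA had 5, BUB1 4, BUB1B and CCNB2 2 each, and CCNA2 and CDK1 1 each. Per pair of libraries, log2 IP over input was computed on CPM scaled to the tested peaks with 0.5 added. The sign depends on this scaling, so a negative value does not mean IP below input. These values were not compared with those of all other peaks. The share of all peaks without overlap between genotypes was not computed either, so such gaps are only described below.

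Both higher peaks were the same AURKA region, merged exons 6 to 8, listed from K513R as chr20:56383068-56386363 and from WT as chr20:56383098-56386392. On the first, log2 IP over input was -0.73, -0.76 and -0.54 in the WT pairs and 0.61, 0.40 and -0.43 in the K513R pairs. The groups did not overlap, but the third K513R pair lay close to the WT pairs. The change was 0.89 (SE 0.23, adjusted p = 0.00977) on the K513R listing and 0.89 (SE 0.23, adjusted p = 0.00922) on the WT listing by edgeR's quasi-likelihood test, and the authors' deposited table gives log2 differences of 0.64 for each. Both calls were lost without WT replicate 1 (adjusted p = 0.0674 and 0.0637), WT replicate 2 (0.0645 and 0.0634) or K513R replicate 2 (0.0635 and 0.0614), and with library sizes the K513R listing no longer passed (0.65, adjusted p = 0.0523). Only 8.22% of its span of 3296 bases is exonic.

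The other AURKA signal lay in the last merged exon, 11 of 11. The WT listing, chr20:56369926-56370375, wholly exonic, had log2 IP over input of 0.72, 1.37 and 0.58 in WT and 0.60, 0.34 and 0.84 in K513R. The groups overlapped, and the change of -0.22 (SE 0.35) did not pass (adjusted p = 0.688), as on the K513R listing (-0.13, SE 0.36, adjusted p = 0.828). In both genotypes all values of this signal were positive on this scale, while those of the region of exons 6 to 8 in WT were negative.

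The checkpoint genes had their tested peaks at the 5′ end. BUB1 had peaks over merged exons 1 to 2 (chr2:110677773-110678063) and over exons 4 to 6 (chr2:110674142-110675055). On the first, log2 IP over input was 0.55, 0.55 and 1.01 in WT and 1.38, 1.25 and 0.66 in K513R, overlapping, with a change of 0.45 (SE 0.37, adjusted p = 0.394). The exon 4 to 6 peak differed between genotypes by 0.12 (SE 0.31, adjusted p = 0.805), and its K513R listing by 0.17 (SE 0.34, adjusted p = 0.751), neither past the threshold. BUB1B had peaks from its first exon (chr15:40161022-40161202 and, into exon 2, chr15:40161022-40165059), with changes of 0.34 (SE 0.26, adjusted p = 0.369) and 0.32 (SE 0.24, adjusted p = 0.357). On the first, log2 IP over input was -0.72, -0.57 and -0.63 in WT and -0.01, -0.55 and -0.44 in K513R. On both BUB1B listings the genotypes did not overlap, but only by a narrow gap, and the difference did not pass the test.

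CCNA2 had 1 peak, listed from K513R only, over merged exons 3 to 4 (chr4:121820693-121821027). Its log2 IP over input was -1.20, -0.91 and -0.82 in WT and -0.24, -0.61 and -0.56 in K513R. The K513R pairs were all higher, and the change of 0.52 (SE 0.25) did not pass (adjusted p = 0.135). The peaks in the last exons of CCNB2 (chr15:59124358-59124538 and chr15:59124537-59124747) and CDK1 (chr10:60794195-60794255) had 0 to 7 counts in any library and were not tested. For CCNB2 the authors' deposited table nevertheless lists log2 differences of 10.35 and 9.18, with FDR of 0.835 and 0.272. With so few counts in these peaks, no change on CCNB2 or CDK1 could be tested.

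**Figure D3:**
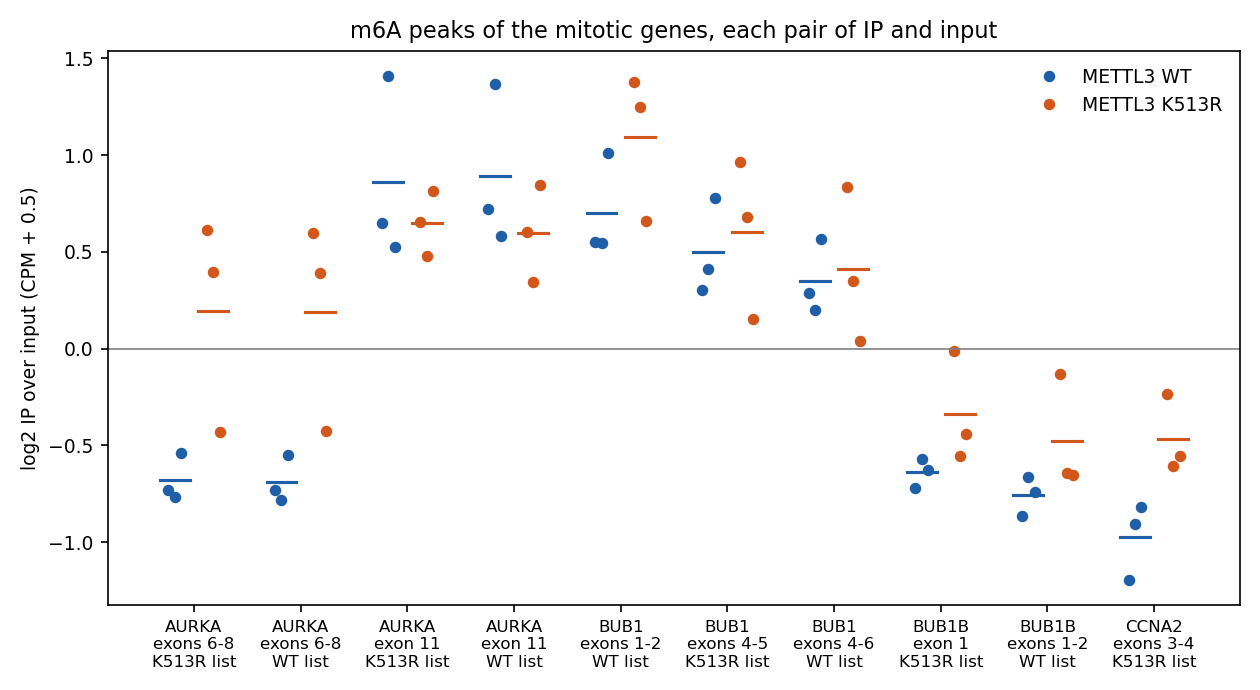
log2 IP over input of each pair of libraries (points) and group means (bars) for the 10 tested peaks on AURKA, BUB1, BUB1B and CCNA2, METTL3 WT in blue and METTL3 K513R in orange. The listings of AURKA exons 6-8 show the widest shift, while AURKA exon 11 and BUB1 exons 4-6 overlap between genotypes.

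The other genes of the mitotic machinery mostly fell in total RNA as well, by less than the 10 genes at the median, and each list had members that rose. For reading the counts below, 36.9% of all genes tested were lower and 41.5% higher. These lists too were chosen with earlier results of these data known. Among 12 regulators of CDK1, 9 fell, 2 rose (PKMYT1 and CKS1B) and MASTL did not pass, with a median of -0.69. CCNF, cyclin F of an SCF ubiquitin ligase, fell most, from 40.7 ± 4.63 to 12.2 ± 1.22 CPM (SD, n = 3; log2 fold change -1.74, SE 0.12, adjusted p = 3.71e-10 by edgeR). PKMYT1, the membrane-bound kinase that inhibits CDK1, rose from 71.5 ± 10.9 to 155 ± 13.6 CPM (1.12, SE 0.12, adjusted p = 1.56e-07 by edgeR; n = 3). Genes on the opposite strand share 31.9% of the exonic length of PKMYT1. Its input level rose as well, by 0.82.

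Of 26 genes of the spindle checkpoint and APC/C, 21 fell, 3 rose (ANAPC5, ANAPC11 and MAD2L1BP) and 2 did not pass (ANAPC2 and UBE2C), with a median of -0.90. MAD1L1, which anchors MAD2 at unattached kinetochores, fell most, from 209 ± 1.19 to 33.2 ± 2.04 CPM (SD, n = 3; -2.65, SE 0.11, adjusted p = 6.36e-13 by edgeR), though 43.2% of its exonic length is shared with another gene on the same strand. MAD2L1BP, whose product p31comet helps to silence the checkpoint, rose from 4.12 ± 0.554 to 11.7 ± 0.601 CPM (1.51, SE 0.14, adjusted p = 2.90e-08 by edgeR; n = 3).

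Of 19 partners of the Aurora and Polo kinases, 13 fell, 3 rose (BIRC5, CEP192 and PLK3) and 3 did not pass, with a median of -0.56; with upper-quartile factors 9 fell and 5 rose. INCENP, the scaffold that binds AURKB, fell from 323 ± 51.4 to 59.4 ± 4.72 CPM (SD, n = 3; -2.44, SE 0.13, adjusted p = 1.27e-11 by edgeR), a larger fall than that of AURKB itself by these estimates. CEP192, the centrosome protein that recruits AURKA and PLK1, rose from 74.6 ± 1.71 to 109 ± 4.68 CPM (0.55, SE 0.10, adjusted p = 6.58e-05 by edgeR; n = 3).

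The list of mitotic transcription activators and MuvB genes split. It also held RBL1, RBL2, E2F4 and TFDP1, so not all of its genes are activators. Of 14, 10 fell (RBL1, RBL2 and TFDP1 among them), 2 rose (FOXM1 and LIN37) and 2 did not pass (E2F4 and NFYB), with a median of -0.84. With upper-quartile factors 8 fell and 4 rose. LIN54, the MuvB subunit that binds the CHR, fell most, from 154 ± 10.4 to 17.5 ± 2.43 CPM (SD, n = 3; -3.14, SE 0.12, adjusted p = 5.05e-13 by edgeR). FOXM1, the forkhead factor that joins MuvB in G2, rose from 109 ± 2.88 to 516 ± 54.7 CPM (2.24, SE 0.12, adjusted p = 8.91e-12 by edgeR; n = 3), with 15.9% of its exonic length shared with ITFG2 on the opposite strand. In the inputs the FOXM1 difference was 0.02 (SE 0.13, adjusted p = 0.927 by edgeR), and the assay term was -2.61 (SE 0.18). FOXM1 RNA was thus higher in total RNA, where the RNA of the 10 genes was lower.

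Among 16 G1 cyclins, kinases and inhibitors tested of 17 listed, 9 fell, 4 rose and 3 did not pass (CCND3, CDK2 and CDKN1B), with a median of -0.65. The 4 that rose were all inhibitors of cyclin-dependent kinases, CDKN1A, CDKN2A, CDKN2B and CDKN2C. The inputs did not repeat this rise. There CDKN2C was lower (-1.21, SE 0.24, adjusted p = 0.00133 by edgeR), with an assay term of -2.88 (SE 0.24). CDKN2A did not pass in the inputs (-0.05, SE 0.22, adjusted p = 0.887 by edgeR), and CDKN1A was not tested there. CDKN1A was at the threshold (0.27, adjusted p = 0.0405 by edgeR) and lost its call when any 1 of the 6 libraries was left out (adjusted p = 0.0656 to 0.196) and with library sizes or no low-count filter. With upper-quartile factors 6 of the list rose. CDKN2B, which blocks CDK4 and CDK6, rose most, from 7.78 ± 1.33 to 108 ± 5.77 CPM (SD, n = 3; 3.79, SE 0.13, adjusted p = 1.59e-13 by edgeR), while its input difference of -0.30 did not pass (adjusted p = 0.253 by edgeR). CDK6, the G1 kinase, fell most, from 37.0 ± 1.85 to 10.8 ± 0.0455 CPM (-1.78, SE 0.11, adjusted p = 5.49e-11 by edgeR; n = 3). The summed epithelial markers fell and the summed markers of other cells rose alongside all of these lists, as given above.

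In the inputs most genes of the same lists did not pass. Of those tested, 1 of 10 CDK1 regulators, 5 of 18 checkpoint and APC/C genes, 5 of 16 Aurora and Polo partners, 2 of 7 genes of the activator and MuvB list and 4 of 12 G1 genes were lower, and 2, 2, 1, 0 and 1 of them were higher, against 13.4% lower and 13.6% higher among all genes tested. Their medians ran from -0.43 for the activator and MuvB list to 0.02 for the CDK1 regulators. These counts were small and moved when a single library was left out. Lower checkpoint and APC/C genes then numbered 2 to 4 (2 without WT replicate 1 or K513R replicate 2, 3 without WT replicate 3 or K513R replicate 3). Lower Aurora and Polo partners numbered 2 to 7 (2 without WT replicate 1, WT replicate 2 or K513R replicate 3, and 3 without K513R replicate 2). Lower genes of the activator and MuvB list numbered 1 to 3 (1 without WT replicate 3).

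**Figure D4:**
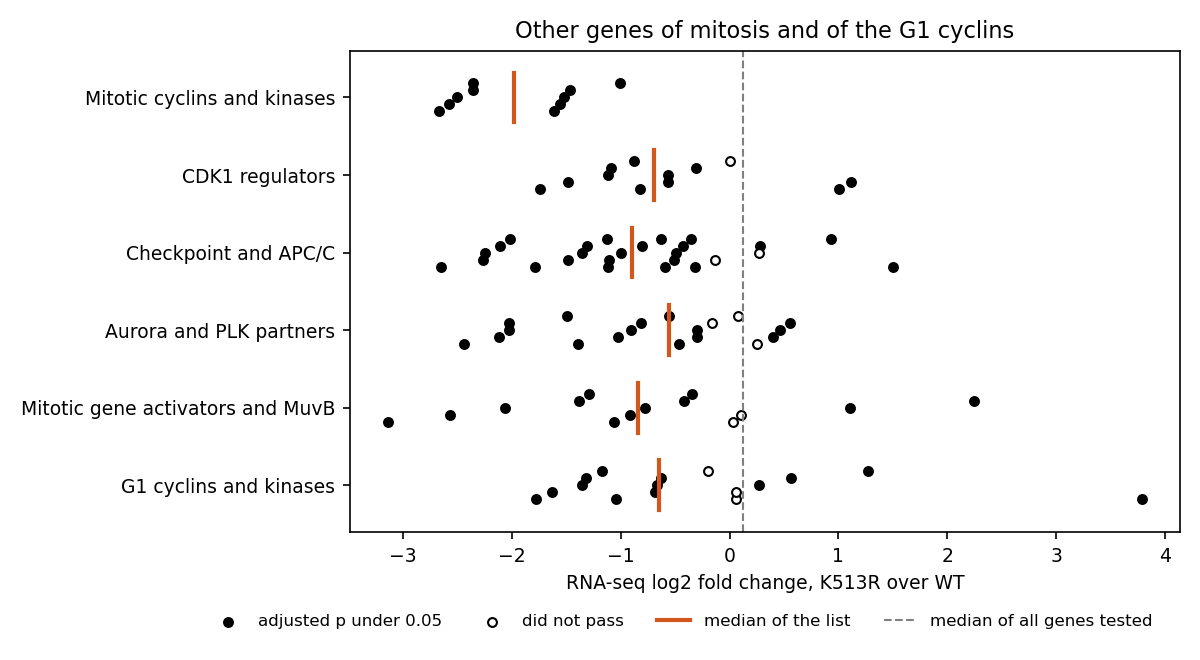
RNA-seq log2 fold change of K513R over WT for each gene tested (filled circles pass an adjusted p under 0.05, open circles do not), by list, with the median of the list (bar) and of all genes tested (dashed line, 0.13). The 10 mitotic cyclins and kinases lie between -2.67 and -1.01, and every other list reaches to both sides of 0; with upper-quartile factors more of these genes lie above 0.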

How the data were processed

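Groups come from the deposited labels. The 10 genes and the pathway lists were chosen with earlier results of these data known. The deposited RNA-seq table holds raw counts of each gene, and the deposited peak table raw counts of each m6A peak in the MeRIP libraries. In the peak table the fold enrichment is a ratio of IP over input, the genotype difference a log2 value, and p-value and FDR columns are given, per the file headers. Per the submitters' processing notes, the tools were edgeR 3.12.1, Trimmomatic 0.36, featureCounts (Subread 1.5.1), deepTools and bedtools, and the build was GRCh38. Which programs aligned reads and called peaks is not given in the sources used here. MeRIP libraries carried molecular identifiers, per the labels' protocols, and how they were used is not stated there. Input and IP of a number were portions of the same RNA, by the labels' protocol and titles, and their deviations correlated at 0.08 to 0.35.

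The main tests were two-sided robust quasi-likelihood tests of edgeR 4.0.16 (R 4.3.3) after filterByExpr and TMM scaling. The threshold was 0.05 on the p adjusted by Benjamini and Hochberg. The RNA-seq filter dropped 30890 genes. Input counts were summed per gene over non-overlapping peaks, keeping the longest. The joint model of assay and genotype and the m6A test are interaction terms, with factors computed within each assay, IP or input. The main m6A test did not pair input and IP of a number. Biological coefficients of variation were 10.5% (inputs), 13.7% (RNA-seq) and 15.2% (peaks). The main edgeR fits of RNA-seq, the inputs, the joint model and m6A were tested on simulated data, and the other steps were not. A peak belonged to a gene when it overlapped a merged exon on the same strand by at least 1 base. Named genes are the 10 genes, all their peaks, and the largest rise and fall of each list past the threshold, with genes that rose or did not pass named where they were few. The labels do not say whether replicates are separate cultures, so p-values measure only the spread between these samples, which may be technical.

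Alternatives were other scaling factors, DESeq2 1.42.0, limma-voom (limma 3.58.1), other filters, removal of 7SL, 7SK and mitochondrial genes, a replicate block, leaving out each replicate, subsets of peaks, and a stricter threshold. Peak sequences and AURKA's promoter were not analysed here, nor was the planned search for GGAC in peaks.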

Additional observations from a re-analysis of the deposited data

Results flagged for a closer look

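For 4 genes the genotype difference in the poly(A) inputs differed from that in total RNA by a test of the difference itself, the assay-by-genotype term of the joint edgeR model. The terms were 1.94 for CCNA2, 1.54 for BUB1B, 0.83 for AURKA and 0.55 for BUB1 on the log2 scale, all in the direction of a smaller fall in the inputs. Over the alternatives run they ranged from 1.78 to 2.11, 1.43 to 1.69, 0.63 to 1.00 and 0.38 to 0.71. The term for BUB1 lost its call in some of them, as given above. The inputs were counted over peaks, some with spans that are partly intronic, and RNA-seq over whole genes. For CCNA2 the inputs were counted over a single peak, listed from K513R only. Whether intronic reads entered the peak counts is not stated, and the part of this in the difference was not tested.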

How the results depend on the processing

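All 10 genes were lower in K513R RNA-seq under each of the 15 alternatives run for that comparison. For single genes and peaks, 710 values kept their direction and side of the threshold, 2 passed it newly, 31 lost it and 14 changed sign, none of which passed the threshold on either side. With library sizes, these were the CCNA2 input difference (0.12) and the BUB1 peaks over exons 4 to 6 (-0.12) and 4 to 5 (-0.070). With peaks at least 50% exonic they were the K513R listing of AURKA exon 11 (0.017) and the FOXM1 input difference (-0.032). Leaving out 1 replicate spread the input differences of CCNA2 from -0.16 to 0.15, FOXM1 from -0.11 to 0.087 and CCNF from -0.13 to 0.29, the AURKA exon 11 peak from -0.33 to 0.088, and the BUB1 peaks over exons 4 to 6 from -0.16 to 0.31 and 4 to 5 from -0.075 to 0.37. Counts of genes in the pathway and marker lists stayed within 1.5 times in 384 cases and moved further in 50. With library sizes, 755 genes were lower in the inputs against 1157, 1813 peaks were higher against 3543, and 1 peak on the 10 genes was higher against 2. When only peaks at least 50% exonic were summed (chosen after seeing the data), 1 of the 10 genes, BUB1B, was lower in the inputs, since BUB1 and CCNA2 were no longer tested. Peaks with a score of at least the median gave 887 higher and 552 lower peaks, those at least 50% exonic gave 1917 and 1117, and both gave 0 higher on the 10 genes. The listings of AURKA exons 6 to 8 were not among the peaks tested in either subset, in the second because the span is 8.22% exonic. Their calls were therefore not tested again there. An adjusted p under 0.01 gave 1392 higher and 914 lower. Leaving out 1 replicate gave 712 to 1354 genes higher and 730 to 1510 lower in the inputs, with 2 to 3 of the 10 genes lower. It gave 1180 to 4172 peaks higher and 868 to 3337 lower, with 0 to 2 on the 10 genes higher. The assay term was called for 3 to 4 of the 10 genes in these runs. Where no cause is named, the cause was not tested.

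The replicate numbers of the genotypes are shared, but same-numbered RNA-seq libraries correlated at -0.14, 0.37 and 0.09 in their deviations, so the numbers were not taken to pair the genotypes. With a replicate block, 12382 genes were higher and 11038 lower in RNA-seq, with all 10 genes lower. The inputs had 2 of the 10 lower, and the assay term was called for 4. For m6A the block joined input and IP of a number within a genotype, not the genotypes. It gave 4611 peaks higher and 3453 lower, against 3543 and 2620 in the main fit, with 2 higher on the 10 genes. The block changed no call on the 10 genes. Few counts limit what can be said of CCNB2 and CDK1, whose peaks had at most 7 counts in a library.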
